A study of Rattus norvegicus with 6 samples.

Results

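Vegfa, Adm, Bnip3 and Pdk1 are targets of the hypoxia-inducible factors (HIF) that act outside glycolysis, and 4 of the 32883 rows of the deposited count table hold them. They were chosen by Ensembl gene ID: ENSRNOG00000019598 for Vegfa, ENSRNOG00000027030 for Adm, ENSRNOG00000017243 for Bnip3 and ENSRNOG00000001517 for Pdk1. The symbols were assigned to these IDs when the genes were selected. No table used here pairs rat Ensembl IDs with symbols, so each pair was left unchecked, and the values below are those of the 4 IDs. All 4 passed the filter on low counts, which left 12702 tested genes.

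The counts come from mRNA sequencing of primary rat bone marrow stromal cells (BMSCs), adherent marrow cells that can form bone, fat and cartilage cells. The Hypoxia group spent 7 days at 1% O2, set with a tri-gas incubator. The Control group was kept in culture that the labels call normal, with no oxygen percentage and no time in culture given. Both groups grew in α-MEM with 10% FBS, no genetic change or other agent is named for either, and each has 3 libraries. The labels give no strain, sex or age of the animals, and do not state if the libraries within a group are distinct animals, distinct cultures or neither. The p-values therefore reflect only the scatter among these libraries, possibly a technical one. For the test per gene, that scatter is estimated partly from the other tested genes. No preparation batch is given either. A batch or a time in culture that differed between the groups cannot be told apart from the oxygen level. The extraction protocol names muscle, whereas the source, cell type and growth protocol name BMSCs. Marker genes of stromal, blood, endothelial and muscle cells could not be looked up by ID, and the cell type was therefore not checked here. Libraries held 13273781 to 13361629 reads assigned to genes in the Control group and 14879124 to 18533675 at 1% O2. Control replicate 2 stood apart from the other controls. Its mean chi-square per gene, which is 1 where sampling noise alone separates libraries, was 6.48 and 6.57 against them, while they were at 1.51 to each other and the 1% O2 libraries at 1.76 to 2.23. Results without it are given below.

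HIF is a pair of proteins, an oxygen-labile alpha subunit and its stable partner ARNT. While oxygen is present, prolyl hydroxylases mark the alpha subunit for destruction through the VHL ubiquitin ligase; when oxygen is scarce the subunit persists, pairs with ARNT and binds short DNA elements with the core ACGTG or GCGTG near its target genes. The 4 genes stand for different arms of this response. Vegfa and Adm encode secreted ligands, the vascular endothelial growth factor A that drives vessel growth and permeability, and adrenomedullin, a peptide that widens and stabilises vessels. Bnip3 encodes a receptor in the outer mitochondrial membrane that recruits the autophagy machinery to mitochondria. Pdk1 encodes a kinase that inhibits pyruvate dehydrogenase and so holds pyruvate back from the mitochondrial citric acid cycle. In bone marrow, VEGF-A made by stromal and osteoblast-lineage cells is known for coupling vessel growth to bone formation.

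The comparison asks how far each of these transcripts differed between cells kept 7 days at 1% O2 and controls of unstated time in culture. All 4 were higher at 1% O2. Bnip3 was 7.65-fold, Pdk1 5.94-fold, Adm 3.61-fold and Vegfa 2.63-fold higher. The folds of both genes of mitochondrial function exceeded those of both secreted ligands, a difference that the exact permutation test of count ratios further on is too small, at 3 libraries a group, to call. Values below are CPM, which puts reads on a shared library size through TMM factors (the trimmed mean of M-values, which centres most genes on no change). CPM is not divided by transcript length, so it compares libraries for 1 gene and not the levels of different genes. In bulk cultures, more RNA per cell and more cells that express a gene cannot be told apart.

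Among the ligands, Vegfa had 354, 331 and 363 CPM in Control replicates 1, 2 and 3, and 873, 922 and 966 CPM in the 1% O2 replicates. The lowest library at 1% O2 was 2.40 times the highest control, so the groups did not overlap. The means were 349 ± 17 CPM in controls and 920 ± 47 CPM at 1% O2 (SD, n = 3 each). The log2 fold change was 1.40 ± 0.05 (SE), with an adjusted p of 5.42e-11 by edgeR's quasi-likelihood test with Benjamini-Hochberg adjustment over all tested genes. Vegfa rests on the most reads of the 4, 4545 to 4997 per control library and 13409 to 15679 at 1% O2. Its spread between libraries, a coefficient of variation of 4.74% in controls and 5.07% at 1% O2, was above the 1.44% and 0.836% that counting error alone would give.

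Adm had 5.35, 6.05 and 5.89 CPM in the controls and 19.8, 19.8 and 23.0 CPM at 1% O2. Every library at 1% O2 lay above every control, by at least 3.27 times, and replicate 3 stood above the other two. The means were 5.76 ± 0.36 and 20.9 ± 1.9 CPM (SD, n = 3 each). The log2 fold change was 1.85 ± 0.11 (SE), with an adjusted p of 8.37e-09 by edgeR. Adm is the member with the fewest reads, 73, 83 and 81 in the controls and 356, 288 and 331 at 1% O2. Counting error alone gives an SE of 0.104 on the log2 scale, nearly the whole of the SE found. The coefficient of variation was 6.33% in controls, against 11.3% for counting error, and 8.94% at 1% O2, against 5.55%.

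Of the mitochondrial genes, Bnip3 had 41.3, 42.4 and 37.9 CPM in the controls and 305, 311 and 314 CPM at 1% O2. The lowest library at 1% O2 was 7.19 times the highest control. The means were 40.5 ± 2.4 and 310.2 ± 4.7 CPM (SD, n = 3 each), a log2 fold change of 2.94 ± 0.05 (SE) with an adjusted p of 4.70e-14 by edgeR. Only 2 of the 12702 tested genes had a smaller p. The coefficient of variation was 5.82% in controls, against 4.24% for counting error, and 1.51% at 1% O2, against 1.44%.

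Pdk1 had 13.8, 14.4 and 13.4 CPM in the controls and 81.1, 81.2 and 84.7 CPM at 1% O2. The lowest library at 1% O2 was 5.65 times the highest control. The means were 13.8 ± 0.5 and 82.3 ± 2.0 CPM (SD, n = 3 each), a log2 fold change of 2.57 ± 0.06 (SE) with 1.29e-12 as its adjusted p by edgeR. Its controls held 184 to 197 reads and its 1% O2 libraries 1181 to 1456. The SE of 0.064 lies at the counting error of 0.065, so no spread between libraries beyond it was detectable at this depth.

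**Figure D1:**
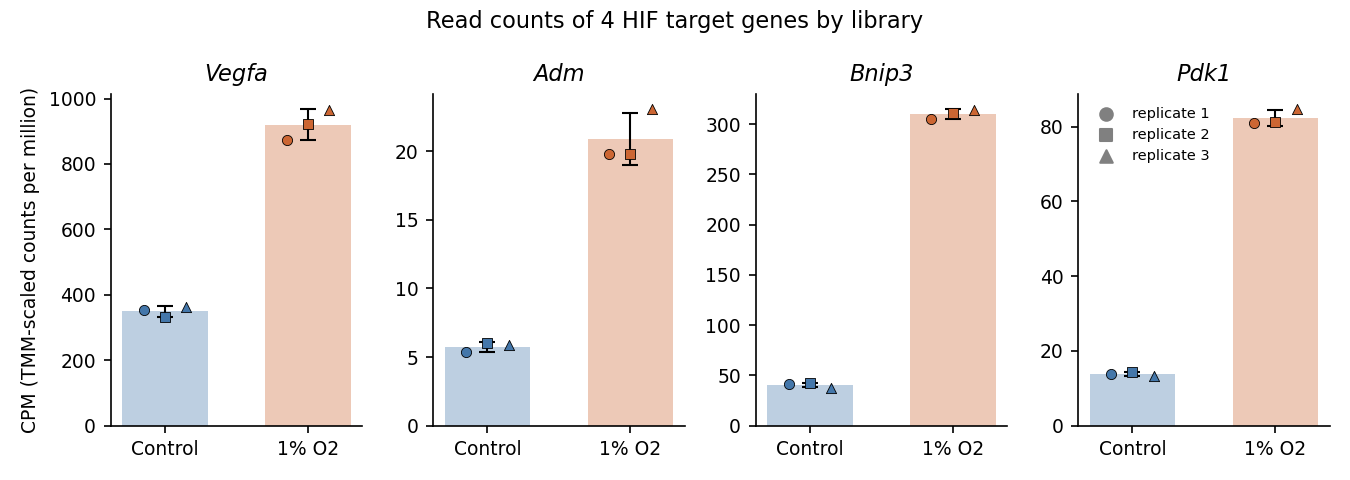
CPM (vertical axes, each from 0) of the 4 genes in the 3 Control and 3 1% O2 libraries; bars are means, error bars SD, and each symbol is 1 library. The groups are apart in every panel, with the lowest 1% O2 library between 2.40 and 7.19 times the highest control.

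The 4 genes were read against the whole table, where many genes differed. At an adjusted p under 0.05, 45.0% of tested genes differed in either direction and 23.1% were higher at 1% O2, and 4 of the 4 members were among them. The share called higher depends on the scaling: with library totals alone it was 16.4% of tested genes, and rises made up 34.3% of all calls, against 51.3% with TMM. The 4 members were called higher under that scaling too. Called and at least 2-fold higher were 2.83% of tested genes, and again 4 of 4 members. With a test of whether the change exceeds 2-fold (edgeR's glmTreat), 1.20% of tested genes passed as higher, and so did all 4 members, with adjusted p from 1.52e-12 for Bnip3 to 2.27e-05 for Adm. The groups did not overlap, with 1% O2 the higher, for 28.2% of tested genes and for 4 of 4 members. The median log2 fold change was 2.21 over the 4 genes and 0.0025 over all tested genes. The genes were selected with earlier results of these data known, and such counts describe them without setting them apart as a class.

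By size of rise, 25 tested genes exceeded Bnip3, 33 exceeded Pdk1, 84 exceeded Adm and 162 exceeded Vegfa. Among genes whose average log2 CPM lay within 0.5 of the member's own, 0 of 744 rose further than Bnip3, 2 of 2181 further than Pdk1, 5 of 1904 further than Adm and 1 of 170 further than Vegfa. The share of these neighbours called higher was 31.6%, 25.4%, 22.0% and 35.3% in the same order. Vegfa, with the smallest fold of the 4, was exceeded by 1 gene of like abundance, but among only 170 such genes. The neighbour sets differ in size, so these counts do not rank the members.

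**Figure D2:**
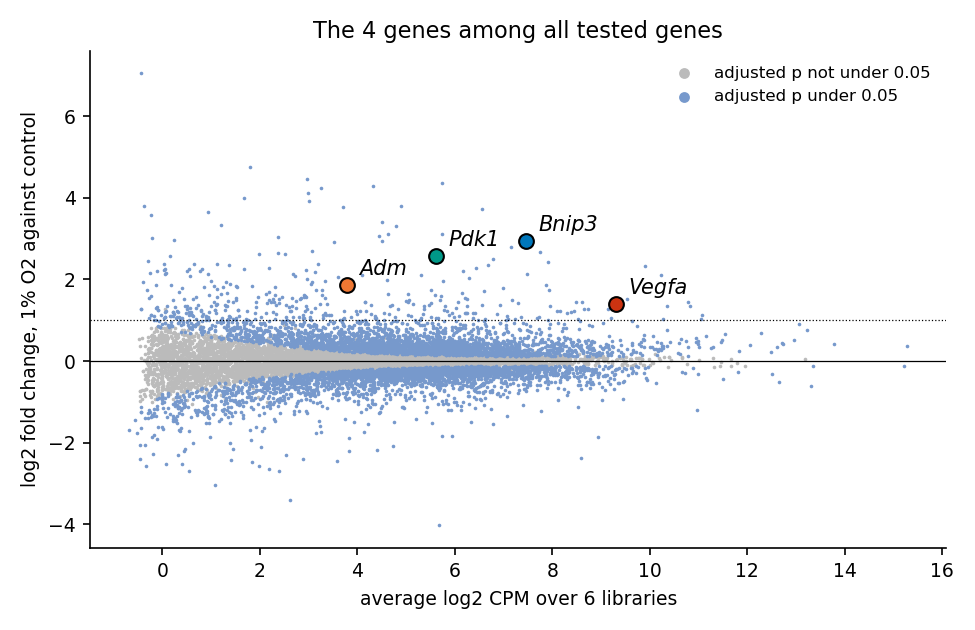
Log2 fold change of 1% O2 against control (vertical) by average log2 CPM over 6 libraries (horizontal) for the 12702 tested genes; grey and blue points did not or did pass an adjusted p of 0.05, and the dotted line marks a 2-fold rise. The 4 genes lie above that line, from 1.40 for Vegfa to 2.94 for Bnip3, along the upper edge of the genes with similar abundance.

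In reads, the order differs from that of the folds. Vegfa went from 0.0360% ± 0.0016 to 0.0892% ± 0.0044 of all reads (SD, n = 3 each), and Bnip3 from 0.00417% ± 0.00025 to 0.0300% ± 0.0004. The changes in read share were summed over all genes called higher with TMM. Of this net sum, Vegfa made up 0.522%, Bnip3 0.254%, Pdk1 0.0644% and Adm 0.0141%. By gain in read share Vegfa ranked 27 and Bnip3 58 among tested genes, whereas Pdk1 ranked 205 and Adm 735. These are unscaled shares of reads, which favour long and abundant transcripts.

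Whether the members rose by different amounts was asked with the ratio of their counts within each library, which does not depend on how libraries are scaled. All 6 pairs were compared. Bnip3 gained most against Vegfa: the libraries held 8.58, 7.81 and 9.59 reads of Vegfa per read of Bnip3 in the controls and 2.86, 2.96 and 3.08 at 1% O2. This is a change of -1.54 in the log2 ratio, with the 9 differences between single libraries of both groups spanning -1.74 to -1.34. The Vegfa to Pdk1 ratio changed by -1.18 (-1.33 to -1.02) and the Adm to Bnip3 ratio by -1.08 (-1.29 to -0.82). In each of these the mean gain of the mitochondrial gene on the ligand was above 2-fold. For Adm to Bnip3 the differences between single libraries also reach below 2-fold. The Adm to Pdk1 ratio changed by -0.72 (-0.85 to -0.51).

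Within each functional pair the differences were smaller. Vegfa reads per Adm read were 66.2, 54.8 and 61.7 in the controls and 44.0, 46.6 and 41.9 at 1% O2, a change of -0.46 in the log2 ratio (-0.66 to -0.23). Bnip3 reads per Pdk1 read were 2.99, 2.95 and 2.83 in the controls and 3.76, 3.84 and 3.71 at 1% O2, a change of 0.37 (0.31 to 0.44). The groups did not overlap for any of the 6 ratios. By exact permutation over libraries, two-sided, p was 0.1 for each, and 0.1 after adjustment over the 6 pairs; this is the smallest p that 3 libraries against 3 allow, so none can pass 0.05. Without Control replicate 2 the changes in the log2 ratio were -0.53 for Vegfa to Adm, -1.61 for Vegfa to Bnip3, -1.24 for Vegfa to Pdk1, -1.08 for Adm to Bnip3, -0.71 for Adm to Pdk1 and 0.37 for Bnip3 to Pdk1.

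**Figure D3:**
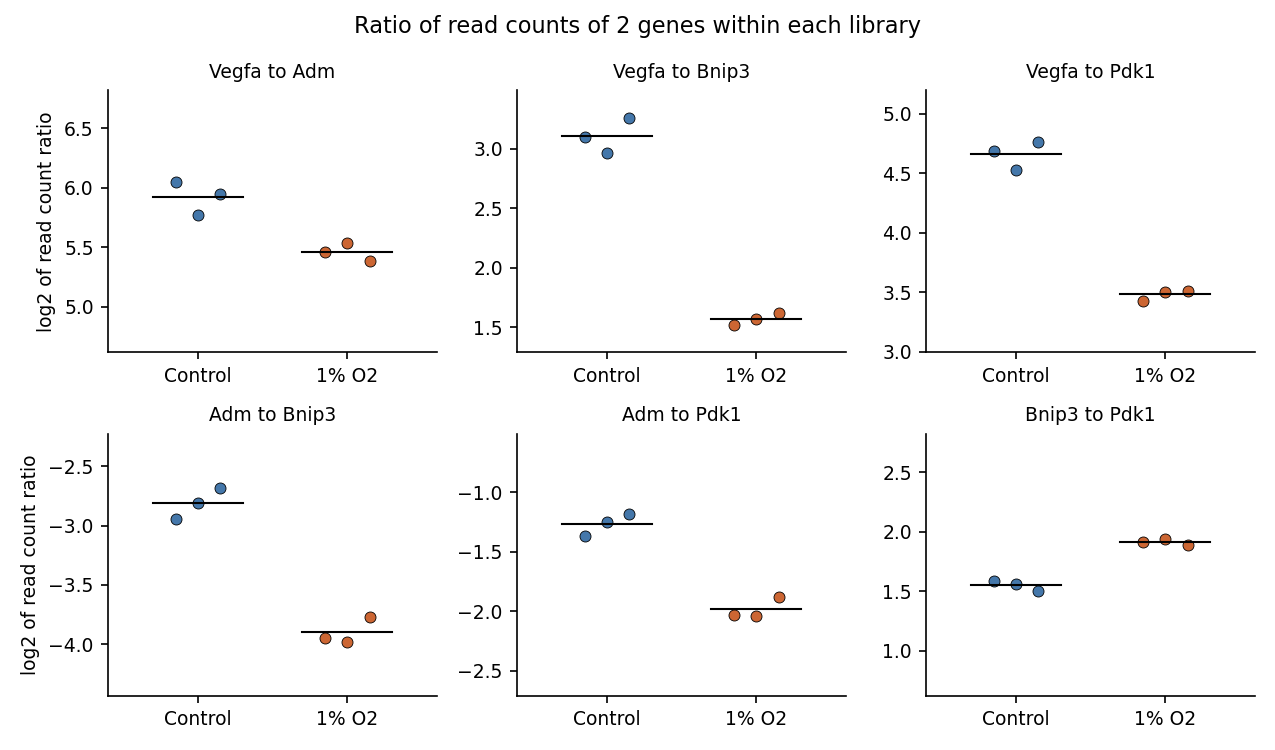
Log2 ratio of the read counts of 2 members within each library (vertical axes, all panels spanning the same range) in the 3 Control and 3 1% O2 libraries; points are libraries and lines are group means. The groups do not overlap in any panel, and the shift is largest for Vegfa to Bnip3 (-1.54) and smallest for Bnip3 to Pdk1 (0.37).

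Differences among libraries of 1 group were small beside the change with oxygen. The deviations from the group mean lay between -0.10 and 0.14 on the log2 CPM scale (prior count 2), and both limits belong to Adm, the least counted member. At 1% O2, replicate 3 was the highest library for 4 of 4 members, by 0.07 above the group mean for Vegfa, 0.14 for Adm, 0.02 for Bnip3 and 0.04 for Pdk1. Replicate 3 was also the highest of its group for 33.5% of all tested genes and for 53.6% of the 360 genes called and at least 2-fold higher. In the controls the members had no common order: replicate 2 was the highest for Adm, Bnip3 and Pdk1 and the lowest for Vegfa.

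Without 1% O2 replicate 3 the log2 fold changes were 1.36 for Vegfa, 1.78 for Adm, 2.93 for Bnip3 and 2.55 for Pdk1, and all 4 kept an adjusted p under 0.05 by edgeR. Without Control replicate 2 they were 1.36, 1.89, 2.97 and 2.60 in the same order, also with adjusted p under 0.05.

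**Figure D4:**
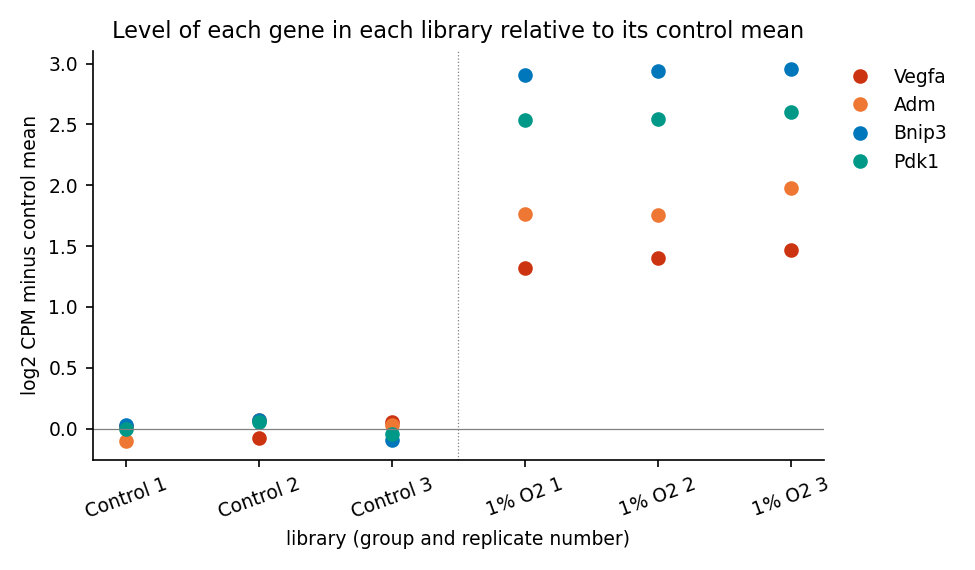
Log2 CPM of each gene minus its own control mean (vertical) in each of the 6 libraries (horizontal, by group and replicate number); each point is 1 gene in 1 library. The controls scatter around 0 and the 1% O2 libraries form 4 separate levels, in the order Vegfa, Adm, Pdk1 and Bnip3 from low to high in all 3 of them.

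The profile across the 6 libraries was also compared with that of all other tested genes, by the Euclidean distance between log2 CPM values taken relative to the control mean. Among the members, Bnip3 and Pdk1 were nearest to each other at 0.65, then Vegfa and Adm at 0.79, and Vegfa and Bnip3 were farthest apart at 2.67. The other genes closest on average to the 4 were ENSRNOG00000058249 and ENSRNOG00000019773, both with a mean distance of 0.99, against a median of 3.79 over tested genes. The first rose from 317 ± 6 to 1594 ± 28 CPM and the second from 25.2 ± 0.6 to 117 ± 6 CPM (SD, n = 3 each). With 6 libraries in 2 groups such likeness is mainly a similar fold change, here 2.33 and 2.21 on the log2 scale, and the table gives these IDs no name.

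Since the members rose together, the promoter windows of the 4 symbols are shown with the letters of the HIF core, to set the sequence beside the response. Windows are those of RefSeq on build GRCr8, 250 bases before to 50 after an annotated start, 5′ to 3′ on the gene's strand; the counts were made on build rn6. All 4 symbols had a window, and Vegfa had a second start, whose window is not printed. The Adm gene record in RefSeq begins upstream of the start used for its window, and that upstream start was not searched here. The Pdk1 gene record begins at base 77113464, within the printed window, while its positions below count from the start at base 77113514. Capitals mark ACGTG or GCGTG on either strand, which on the printed strand also read CACGT or CACGC.
Bnip3, chr1:203154913-203155212, minus strand: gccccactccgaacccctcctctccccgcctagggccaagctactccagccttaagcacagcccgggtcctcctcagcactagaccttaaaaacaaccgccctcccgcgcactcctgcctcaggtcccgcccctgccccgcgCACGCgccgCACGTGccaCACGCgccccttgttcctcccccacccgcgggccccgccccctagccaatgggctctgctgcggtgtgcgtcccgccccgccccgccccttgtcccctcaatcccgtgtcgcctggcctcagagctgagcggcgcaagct
Pdk1, chr3:77113264-77113563, plus strand: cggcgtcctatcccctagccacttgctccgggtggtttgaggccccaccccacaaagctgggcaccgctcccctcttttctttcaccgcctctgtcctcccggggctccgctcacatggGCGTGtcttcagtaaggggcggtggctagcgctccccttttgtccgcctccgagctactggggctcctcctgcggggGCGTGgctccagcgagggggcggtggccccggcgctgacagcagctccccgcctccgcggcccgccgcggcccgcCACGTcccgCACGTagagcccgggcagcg
Adm, chr1:174179950-174180249, plus strand: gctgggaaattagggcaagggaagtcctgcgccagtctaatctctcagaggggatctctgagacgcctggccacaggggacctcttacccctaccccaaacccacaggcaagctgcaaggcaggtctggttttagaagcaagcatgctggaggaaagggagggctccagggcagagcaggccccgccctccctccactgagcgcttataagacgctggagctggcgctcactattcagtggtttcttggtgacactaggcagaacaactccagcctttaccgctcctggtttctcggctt
Vegfa, chr9:22452604-22452903, plus strand: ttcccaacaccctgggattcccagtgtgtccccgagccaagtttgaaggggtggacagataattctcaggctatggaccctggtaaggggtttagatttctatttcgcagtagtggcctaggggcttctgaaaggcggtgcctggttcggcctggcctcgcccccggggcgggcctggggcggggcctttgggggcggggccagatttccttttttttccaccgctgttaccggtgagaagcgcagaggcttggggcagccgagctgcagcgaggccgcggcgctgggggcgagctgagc

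The HIF core occurred 4 times in the Bnip3 window, counting each strand, and 4 times in that of Pdk1. In Bnip3 the matches lie together, between 108 and 86 bases before the start, and 2 of the 4 are the strands of a single CACGTG palindrome. In Pdk1, 1 match lies 131 to 127 bases and another 54 to 50 bases before the start, and 2 lie after it, at bases 22 to 26 and 31 to 35. The single Adm window and both Vegfa windows had 0 matches. Of all 33469 windows of the same length, 41.6% hold the core and 8.15% hold at least 3 matches, so a single match is common. The share of windows with at least 4 matches, the number in Bnip3 and in Pdk1, was not counted. A match describes letters and shows no binding, and 0 matches says only that these letters are not in these 300 bases.

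The GC box, the letters GGGCGG bound by SP-family factors such as the SP1 of the series title, was searched on both strands in the same windows. It occurred 6 times in Bnip3, 3 times in the first Vegfa window, 2 times in Pdk1 and 1 time in Adm, with 0 in the second Vegfa window. None of these matches overlapped the HIF core. Matches that share bases were each counted. In Bnip3, those at 18 to 13, 13 to 8 and 8 to 3 bases before the start share end bases and form a single run. The GC box is found in 33.1% of all windows. The member windows are rich in G and C, at 71.3% for Bnip3, 72.0% for Pdk1, 63.3% and 57.3% for the Vegfa windows and 58.0% for Adm, against a median of 51.7%, and both motifs consist mostly of these bases.

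**Figure D5:**
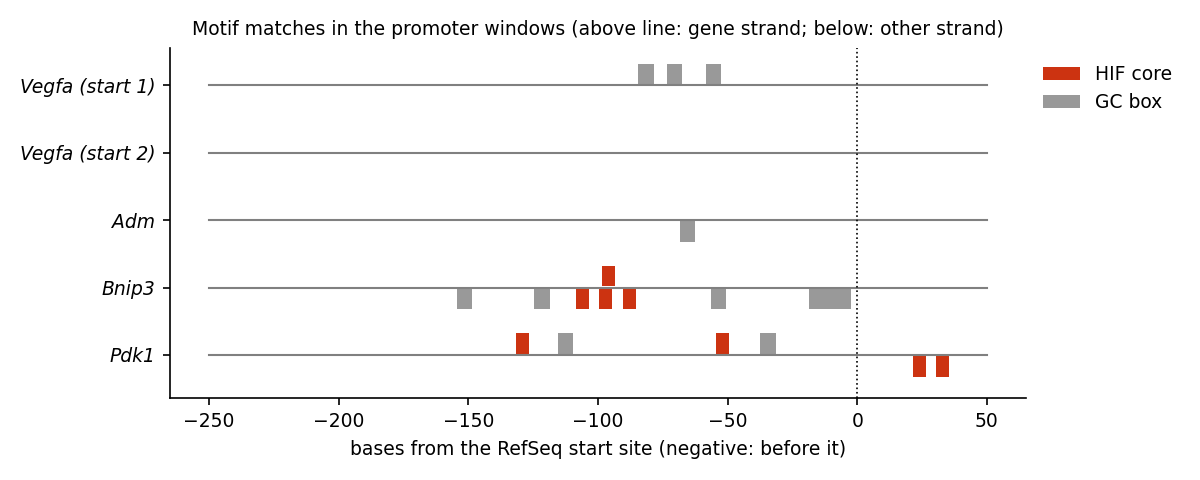
Matches to the HIF core (red) and the GC box (grey) in the promoter windows, by distance in bases from the RefSeq start site (horizontal), with the gene strand above and the other strand below each line. Bnip3 and Pdk1 have 4 red marks each, 1 pair in Bnip3 being a palindrome, and the Vegfa and Adm windows have 0.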

How the data were processed

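The authors deposited raw read counts per Ensembl gene ID. Per the submitters' processing notes, HISAT2, featureCounts and DESeq2 were used with build rn6; their versions, the annotation release and the use of strand were not given in the sources used here, so overlapping or antisense genes may share reads. Per the labels' protocols the libraries are stranded poly(A) mRNA. The 6 columns match the library names in the labels, and 0 columns belong to other samples.

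The whole table was analysed with edgeR 4.0.16 in R 4.3.3: filterByExpr defaults (minimum count 10, minimum total 15), TMM factors, a two-sided quasi-likelihood test of 1% O2 against control with 4 residual degrees of freedom, and Benjamini-Hochberg adjustment over 12702 genes at 0.05. The test moderates each gene's variance with that of all tested genes, so its p-values do not rest on those 4 degrees of freedom alone. The SE, which carries this moderation, is the log2 fold change divided by the square root of F. Counting SE comes from the summed reads. The named genes are the 4 members and the 2 IDs closest in profile. Members and lists were chosen with earlier results of these data known. Lists of other HIF targets, HIF regulators and cell type markers were not run, because the RefSeq table (47357 genes) gives 0 Ensembl IDs. Alternatives used DESeq2 1.42.0, limma 3.58.1 (voom), other scalings, filters and dispersion estimates, a 2-fold null, a replicate block, and leaving out each library. The 2 groups share replicate numbers, and nothing in the labels says that these mark pairs.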

Additional observations from a re-analysis of the deposited data

How the results depend on the processing

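All 4 members stayed higher at 1% O2 with an adjusted p under 0.05 in 15 of 15 alternatives, the largest adjusted p being 2.27e-05 (edgeR glmTreat, Adm). The size of the adjusted p moved with the setting. For Vegfa by edgeR it was 5.42e-11 in the main fit, 1.06e-37 with no low-count filter and 2.21e-23 without Control replicate 2. The log2 fold changes of Vegfa in these fits were 1.40, 1.40 and 1.36. The log2 fold changes ranged from 1.31 to 1.43 for Vegfa, 1.76 to 1.89 for Adm, 2.85 to 2.97 for Bnip3 and 2.48 to 2.60 for Pdk1. The lowest values came with library totals alone, which lowers the median of all tested genes to -0.09. Leaving out 1 library gave 1.36 to 1.43, 1.78 to 1.89, 2.89 to 2.97 and 2.55 to 2.60 in the same order. The number of changed genes, 5718, was 212 with a null of 2-fold, by construction, and lay between 4580 and 6071 under the other alternatives. The 6 count ratios kept their direction in 8 of 8 alternatives each, of which the replicate block repeats the main value and could not reverse it. The value closest to 0 was 0.34 for Bnip3 to Pdk1.

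With a replicate block the log2 fold changes were 1.40, 1.86, 2.94 and 2.57, and 5295 genes changed; for the ratios the block gives the same difference by construction, -0.46 for Vegfa to Adm for example. Same-numbered libraries correlated at -0.20, -0.20 and 0.03 in their deviations from the group means over 5043 abundant genes, and differently numbered ones at -0.19 to 0.24, and no pairing was assumed. Depth limits Adm and Pdk1, whose SEs lie close to counting error; that of Adm, with the fewest reads, is the largest of the 4.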
